A study of Homo sapiens with 6 samples.

Results

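Macroautophagy is the route by which a cell encloses part of its own cytoplasm in a double membrane, the autophagosome, and delivers it to the lysosome for breakdown. A kinase complex built on ULK1 starts the process, a lipid kinase complex built on VPS34 and Beclin 1 marks the site, and a pair of conjugation systems attaches the small ATG8 proteins (the LC3 and GABARAP families) to the growing membrane. Cargo receptors such as p62 bind ubiquitin-tagged material and ATG8 at once, and TFEB is a transcription factor known for switching on lysosomal and autophagy genes. In liver cells the pathway is known for removing damaged mitochondria, lipid droplets and protein aggregates, and loss of it lets p62 build up.

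The mRNA levels of 39 autophagy genes, chosen by symbol for their place in this pathway, were described in LM3 cells with and without ZNF706 knockdown. All 39 were found among the 33007 genes of the table, each on 1 row. LM3 is an established hepatocellular carcinoma (HCC) cell line, and both groups are the same line with the genotype label WT. The control group is 3 samples of vector control cells, and the knockdown group is 3 samples of cells with stable ZNF706 knockdown. The labels name no drug for either group. The paper states that infected cells were selected with puromycin when its stable knockdown lines were made. The study made its knockdowns with short hairpin RNAs, and which hairpin the sequenced cells carried is not given in the sources used here. Nothing states that the 3 samples of a group were separate cultures, so p-values measure only the spread between these samples.

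The total counts of the control samples were 62684076, 64713764 and 63054445, and those of the knockdown samples 68548419, 65861994 and 69057423, so each knockdown library was deeper than each control library. Levels are given as CPM, which are counts divided by library sizes that the TMM method adjusts, or as the deposited FPKM, which is also divided by gene length. FPKM alone is used to compare one gene with another. Fold changes and adjusted p-values came from edgeR's quasi-likelihood test over 18390 genes with Benjamini-Hochberg adjustment, and a gene is called higher or lower when its adjusted p was below 0.05. The gene ZNF706 lies on the minus strand of chromosome 8 (101177878 to 101205682 in GRCh38, ENSG00000120963) and had 51.9, 55.1 and 54.7 CPM in the control samples and 33.5, 30.8 and 32.8 CPM in the knockdown samples. The targeted gene therefore fell by 39.9% in the cells labelled as knockdown (log2 fold change -0.73, standard error 0.050, edgeR adjusted p = 3.7e-05).

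The cells were checked against marker genes. The epithelial keratins KRT8 (190 to 207 FPKM) and KRT18 (258 to 283 FPKM) were abundant in every sample. They were the only 2 of the 5 simple epithelium markers to reach 1 FPKM. KRT19, EPCAM and CDH1 stayed below it in every sample. Of the 10 hepatocyte and HCC markers, 3 reached 1 FPKM in some sample, and the list summed to between 3.78 and 9.71 FPKM in the control samples and between 2.73 and 4.21 FPKM in the knockdown samples. Its most abundant gene was ALB, with a mean of 2.17 FPKM. SERPINA1 and APOB of this list were called lower (log2 fold changes -1.47 and -0.98), the second of them not in 6 of 14 other settings. The leukocyte marker PTPRC was at 0.01 FPKM or less in every sample, the endothelial marker VWF at 0.03 or less and the fibroblast marker DCN at 0.05 or less. COL1A1, the most abundant of the 5 fibroblast genes, was called higher (7.01 to 7.13 FPKM in the control and 8.29 to 8.46 in the knockdown samples), as was PDGFRB. CDH5 of the endothelial list was called lower. CD68, which is listed as a leukocyte marker and codes for a lysosomal membrane glycoprotein, rose from 10.4 to 10.7 FPKM in the control samples to between 16.5 and 18.1 FPKM in the knockdown samples (log2 fold change 0.64, edgeR adjusted p = 0.000106). The part of these markers in the autophagy results was not tested.

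Of the 39 autophagy genes, 38 had enough counts to be tested. TFEB, ULK1 and ATG13 were higher in ZNF706 knockdown cells, and MAP1LC3B, GABARAPL1, ATG4D, RB1CC1, LAMP2, SQSTM1 and PIK3R4 were lower. The other 28 did not pass the test. The 10 calls are 26.3% of the tested members, and 22.8% of all tested genes were called, so the share lies near the background. In the lower direction the members gave 7 calls of 38, where 12.4% of all genes were called, and in the higher direction 3 of 38, where 10.4% were. The log2 fold changes of the members ran from -0.43 to 0.61 with a median of -0.02, and the median over all tested genes was 0.01. The balance of directions depended on the scaling. With counts scaled by library size alone, 5 members were higher and 5 lower, and over all genes 2742 were higher and 1518 lower in place of 1906 and 2286. With an unadjusted edgeR p below 0.05 and a log2 fold change of 0.3 or more in size, 2 members were higher (TFEB and ULK1) and 3 lower (MAP1LC3B, GABARAPL1 and ATG4D), where 9.61% and 5.88% of all genes were. The groups did not overlap for 19 of the 38, of which 7 were higher and 12 lower in knockdown cells. Among all genes 39.4% did not overlap, 19.7% in the higher and 19.7% in the lower direction.

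**Figure D1:**
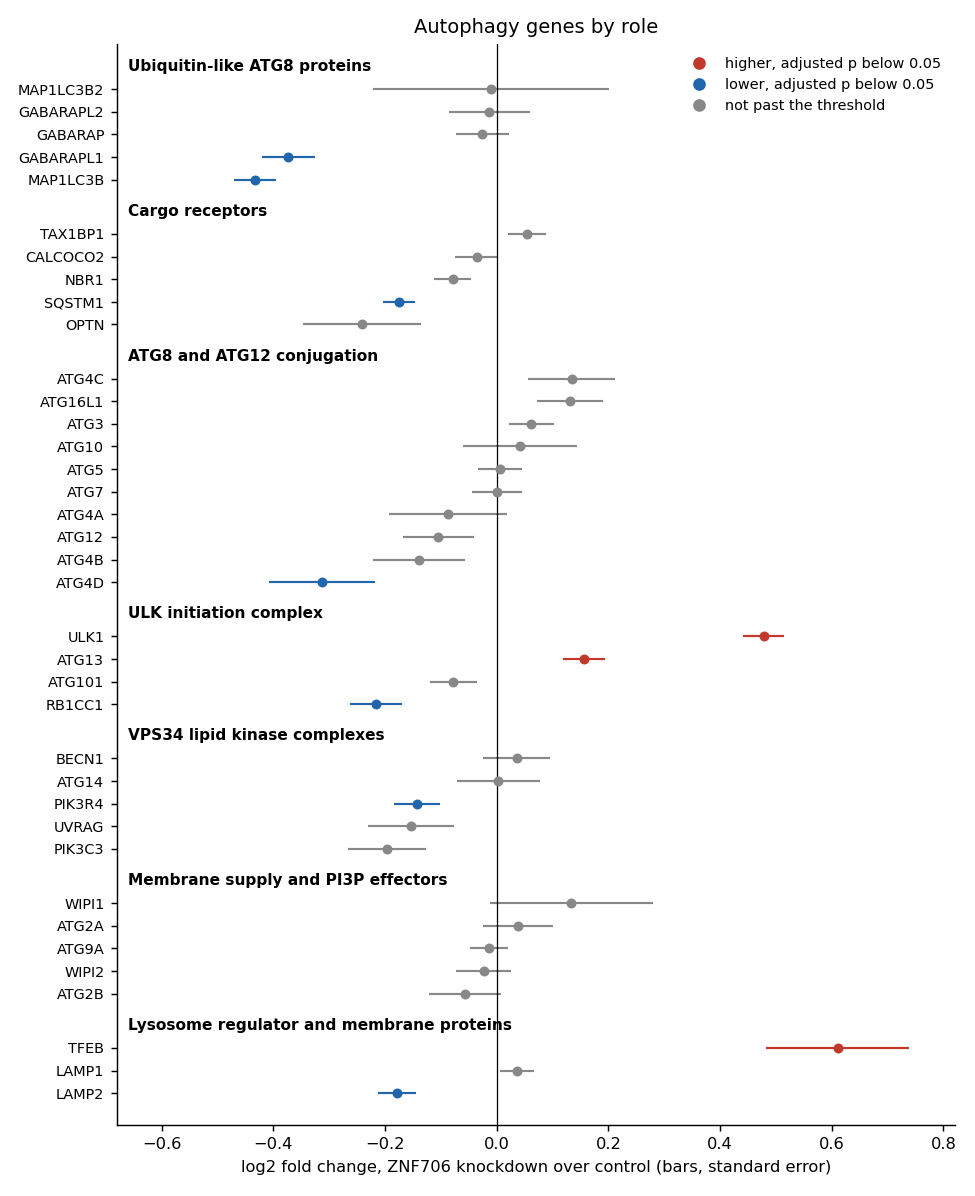
Log2 fold change (x axis) of 37 tested autophagy genes, grouped by role, with bars for the standard error of the edgeR fit and colour for the call. ULK2 is left off the axis because its standard error was 1.16. Most members lie close to 0, and the points farthest out are TFEB (0.61) and ULK1 (0.48) above and MAP1LC3B (-0.43) and GABARAPL1 (-0.37) below.

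The ATG8 proteins are the ubiquitin-like tags that are joined to the lipid of the autophagosome membrane, and LC3B is the one most often used to count autophagosomes. MAP1LC3B (ENSG00000140941, chromosome 16, 87383953 to 87404779, plus strand) had 92.5, 96.8 and 96.9 CPM in the control samples and 68.7, 71.2 and 72.2 CPM in the knockdown samples. Every knockdown sample was below every control sample, and the group means were 95.4 ± 2.50 and 70.7 ± 1.82 CPM (SD, n = 3 each). This is a fall of 25.9% (log2 fold change -0.43, standard error 0.038, edgeR adjusted p = 9.84e-05). GABARAPL1 (ENSG00000139112, chromosome 12, 10212458 to 10223128, plus strand) had 148, 139 and 149 CPM in the control samples and 106, 112 and 118 CPM in the knockdown samples. Again the groups did not overlap, and the mean dropped from 145 ± 5.72 to 112 ± 6.04 CPM (SD, n = 3 each). Its log2 fold change was -0.37 (standard error 0.047, edgeR adjusted p = 0.000608), a fall of 22.8%.

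The other ATG8 genes did not pass the test. GABARAP had 96.7, 105 and 98.9 CPM in the control samples and 95.9, 95.7 and 104 CPM in the knockdown samples, so that the groups overlapped (log2 fold change -0.03, standard error 0.047). GABARAPL2 was also overlapping, with 27.4 to 29.5 CPM in the control and 26.1 to 30.5 CPM in the knockdown samples. MAP1LC3B2, a near-identical copy of MAP1LC3B on chromosome 12, had 1.46 to 1.98 CPM over all samples, and reads from the 2 genes may not have been told apart by the authors' counting. MAP1LC3A was close to silent, with 4, 13 and 6 counts in the control group and 0, 4 and 17 in the knockdown group, and was not tested. GABARAPL3, the copy of GABARAPL1, reached at most 9 counts in a sample and so can hold few of the reads of GABARAPL1.

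Per length, GABARAP was the most abundant ATG8 mRNA in these cells, at 44.4 ± 1.95 FPKM in the control and 45.1 ± 2.11 FPKM in the knockdown group (SD, n = 3 each). GABARAPL1 followed at 30.9 ± 1.21 and 24.7 ± 1.30 FPKM, then MAP1LC3B at 16.3 ± 0.31 and 12.5 ± 0.32 FPKM and GABARAPL2 at 8.15 ± 0.23 and 8.34 ± 0.67 FPKM. These 4 levels did not overlap in either group, so the order of the family was the same in both. The summed FPKM of the 6 genes was 99.6, 102 and 100.5 for the controls and 88.0, 91.2 and 95.3 for the knockdown samples, a drop of the mean by 9.10%. As a share of that sum, MAP1LC3B was 16.2% ± 0.16 in the control and 13.7% ± 0.27 in the knockdown group, GABARAPL1 30.7% ± 1.55 and 27.0% ± 0.35, GABARAP 44.1% ± 1.45 and 49.2% ± 1.02, and GABARAPL2 8.09% ± 0.21 and 9.12% ± 0.71 (SD, n = 3 each). The first pair of shares was lower and the second pair higher in knockdown cells, and the shares of these 4 genes did not overlap between the groups. Shares of the same sum are tied, so that a fall in some raises the others. The FPKM of GABARAP and of GABARAPL2 themselves overlapped between the groups. The exact permutation test gave a two-sided p of 0.1 for each, the smallest possible with 3 samples against 3, and 0.15 when adjusted over the 6 genes.

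**Figure D2:**
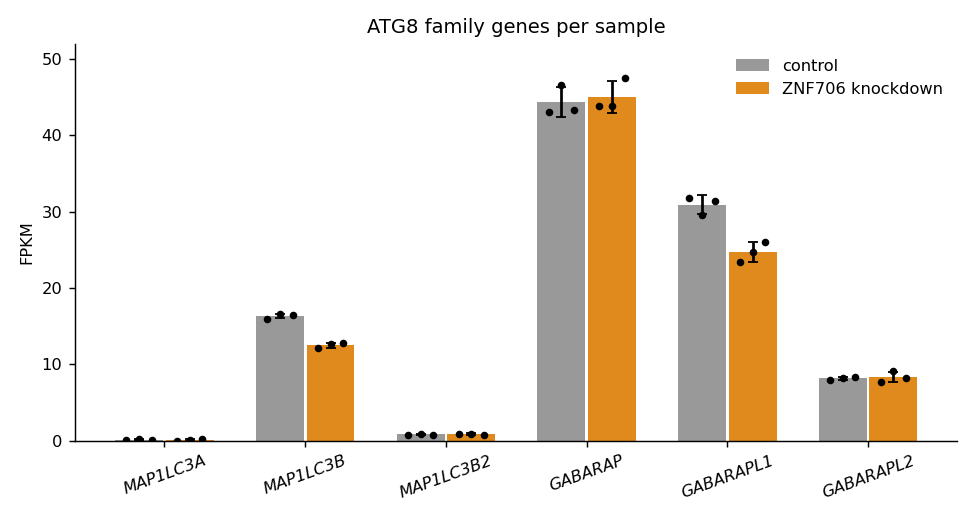
FPKM (y axis) of the 6 ATG8 family genes, with bars for the group mean, error bars for the SD over 3 samples and points for the samples. The knockdown samples lie below the control samples for MAP1LC3B and GABARAPL1, and the points overlap for the other genes.

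The cargo receptors link ubiquitin-tagged cargo to ATG8. SQSTM1 (ENSG00000161011, chromosome 5, 179806398 to 179838078, plus strand), which codes for p62, had 341, 341 and 338 CPM in the control samples and 299.8, 301 and 303 CPM in the knockdown samples. The SD was 1.94 CPM in the control and 1.39 CPM in the knockdown group (n = 3 each), and the groups stood apart by a fall of 11.4% (log2 fold change -0.18, standard error 0.029, edgeR adjusted p = 0.00222). The raw counts, 20734 to 21688 in the control and 20199 to 21172 in the knockdown samples, overlap, so that the call rests on the scaling for depth. It held with library size alone, where the fall was smaller (-0.12 on the log2 scale, edgeR adjusted p = 0.0145). Exons of MRNIP on the opposite strand cover 20.7% of the exon bases of SQSTM1, and the strand setting of the counting is not given in the sources used here. MRNIP had far fewer reads (a mean of 979.5 counts against 20988) and was not called.

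NBR1, TAX1BP1 and CALCOCO2, further receptors for ubiquitin-tagged cargo, bacteria or aggregates, had log2 fold changes of -0.08, 0.05 and -0.04. NBR1 was lower and TAX1BP1 higher in every knockdown sample than in any control sample, yet neither passed the test (edgeR adjusted p = 0.116 and 0.311). Groups that do not overlap were common over all genes, at the 39.4% given above. OPTN, the receptor optineurin, had the lowest log2 fold change of the 5 receptors (-0.24) but a standard error of 0.106, and its groups overlapped. Without knockdown replicate 1 its log2 fold change was -0.15, and that of SQSTM1 was lower at -0.17.

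The conjugation genes make and attach the ATG8 tags. ATG7 is the enzyme that activates both ATG8 and ATG12, ATG3 and ATG10 pass them on, the ATG5, ATG12 and ATG16L1 proteins form the complex that places ATG8 on the membrane, and the ATG4 proteases trim ATG8 and release it again. ATG5 (ENSG00000057663) had 81.1, 81.1 and 85.0 CPM in the control samples and 80.1, 82.3 and 85.9 CPM in the knockdown samples. ATG7 (ENSG00000197548) had 39.4, 41.7 and 40.6 CPM in the control samples and 40.3, 40.9 and 40.4 CPM in the knockdown samples. Both overlapped fully between the groups, with log2 fold changes of 0.01 (standard error 0.040) and 0.0006 (standard error 0.046). VGLL4 on the opposite strand shares 18.1% of the exon bases of ATG7 and fell itself (log2 fold change -0.43, edgeR adjusted p = 0.000147). Its part in the value of ATG7 was not tested.

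Among the proteases, ATG4D (ENSG00000130734, chromosome 19, 10543895 to 10553418, plus strand) was called lower, with 18.7, 15.6 and 19.0 CPM in the control samples and 14.5, 13.8 and 14.6 CPM in the knockdown samples. Control replicate 2 lay close to the knockdown samples, but the groups did not overlap (log2 fold change -0.31, standard error 0.095, edgeR adjusted p = 0.0397). The call was lost in 8 of 16 other settings, among them library size alone (edgeR adjusted p = 0.0784), and KRI1 on the opposite strand shares 15.0% of its exon bases at a higher count. ATG4A, ATG4B and ATG4C had log2 fold changes of -0.09, -0.14 and 0.13, and none was called. Nor were ATG16L1 (0.13), ATG3 (0.06), ATG10 (0.04) and ATG12 (-0.10), so 9 of the 10 conjugation genes did not pass the test. With 10 genes, the 10% called says little beside the 22.8% called over all genes. RPS23 on the opposite strand shares 6.86% of the exon bases of ATG10, with a mean of 37093 counts against 602. Its part in the value of ATG10 was not tested.

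The ULK complex is the kinase that starts autophagosome formation, with ULK1 or ULK2 as its enzyme, ATG13 and ATG101 as partners and FIP200, the product of RB1CC1, as its scaffold. Its subunits did not move together. ULK1 (ENSG00000177169, chromosome 12, 131894622 to 131923150, plus strand) had 82.5, 84.4 and 79.4 CPM in the control samples and 117, 115 and 112 CPM in the knockdown samples. The means were 82.1 ± 2.55 and 114 ± 2.23 CPM (SD, n = 3 each), a rise of 39.3% that was many times the spread (log2 fold change 0.48, standard error 0.037, edgeR adjusted p = 6.25e-05). ULK2 was close to silent, with 23, 2 and 11 counts in the control group and 9, 26 and 0 in the knockdown group, too few to show a change.

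ATG13 (ENSG00000175224, chromosome 11, 46617527 to 46674520, plus strand) had 66.6, 66.2 and 69.4 CPM in the control samples and 72.8, 76.4 and 76.2 CPM in the knockdown samples. The groups did not overlap (log2 fold change 0.16, standard error 0.038, edgeR adjusted p = 0.0163), and the call was lost without control replicate 1, without control replicate 2 and without knockdown replicate 2 (edgeR adjusted p of 0.0721 at most). RB1CC1 (ENSG00000023287, chromosome 8, 52622458 to 52745843, minus strand) had 83.9, 84.3 and 87.1 CPM in the control samples and 78.3, 71.8 and 69.7 CPM in the knockdown samples. It fell by 13.9% (log2 fold change -0.22, standard error 0.047, edgeR adjusted p = 0.00912). Its call was lost without knockdown replicate 2 (edgeR adjusted p = 0.0503) and with limma on log2(FPKM + 0.1) without a filter (log2 fold change -0.17, limma adjusted p = 0.094). It was also lost when the trend of counts with GC content was taken out of each library (log2 fold change -0.12, edgeR adjusted p = 0.0627), a setting chosen after the data were seen. ATG101 had a log2 fold change of -0.08 and was not called.

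VPS34, coded by PIK3C3, makes the lipid PI3P in complexes with PIK3R4 (the pseudokinase VPS15), Beclin 1 and either ATG14, for autophagosome formation, or UVRAG, for later traffic. PIK3R4 (ENSG00000196455, chromosome 3, 130678934 to 130746829, minus strand) had 62.7, 62.8 and 60.6 CPM in the control samples and 57.8, 53.7 and 57.0 CPM in the knockdown samples. This fall of 9.42% was called (log2 fold change -0.14, standard error 0.042, edgeR adjusted p = 0.0339), but the call was lost in 12 of the 16 other settings, DESeq2 among them, and is the least stable of the 10. BECN1 (ENSG00000126581) had 43.2, 45.3 and 47.2 CPM in the control samples and 43.0, 49.8 and 46.3 CPM in the knockdown samples, which overlap (log2 fold change 0.04, standard error 0.060). Exons of PSME3, itself called lower (log2 fold change -0.16), and of CNTD1 lie opposite 4.68% and 12.4% of its exon bases. PIK3C3 (-0.20) and UVRAG (-0.15) were below the control samples in every knockdown sample without passing the test (edgeR adjusted p = 0.070 and 0.193), and ATG14 had a log2 fold change of 0.003.

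The genes for membrane supply gave no call, where 22.8% of all genes were called. ATG9A, a scramblase carried on vesicles, and the lipid transfer proteins ATG2A and ATG2B had log2 fold changes of -0.01, 0.04 and -0.06. The PI3P-binding proteins WIPI1 and WIPI2 had 0.13 and -0.02, with a standard error of 0.146 for WIPI1. The value of WIPI1 was -0.03 without knockdown replicate 3 and 0.23 without knockdown replicate 2. Its exon bases are shared for 24.3% with ARSG on the opposite strand. ARSG had a mean of 533.8 counts against 435.3 for WIPI1 and was itself called lower (log2 fold change -0.35, edgeR adjusted p = 0.0413), and its part in the value of WIPI1 was not tested. In none of these 5 genes were the groups apart. ATG9A was among the more abundant members (20.8 ± 0.27 FPKM in the control and 21.3 ± 0.53 in the knockdown group, SD, n = 3 each), and a gene on its own strand, AC068946.2, shares 38.8% of its exon bases, so reads could have been split between them.

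TFEB (ENSG00000112561, chromosome 6, 41683978 to 41736259, minus strand) had 5.95, 5.85 and 5.49 CPM in the control samples and 9.97, 8.97 and 7.46 CPM in the knockdown samples. The lowest knockdown sample was above the highest control sample, and the spread was wider in the knockdown group (8.80 ± 1.26 against 5.76 ± 0.24 CPM, SD, n = 3 each). The rise of 52.7% was the largest relative change among the 38 tested members (log2 fold change 0.61, standard error 0.128, edgeR adjusted p = 0.00765). It started from a low level of 0.87 ± 0.047 FPKM, rank 36 of the 39 genes over all samples. LAMP1 and LAMP2 code for the main glycoproteins of the lysosomal membrane, and the difference between their changes was not tested. LAMP2 (ENSG00000005893, chromosome X, 120426148 to 120469365, minus strand) had 157, 154 and 158 CPM in the control samples and 142, 135 and 137 CPM in the knockdown samples, a fall of 11.7% (log2 fold change -0.18, standard error 0.035, edgeR adjusted p = 0.00515). Its call was lost with limma on log2(FPKM + 0.1) without a filter (log2 fold change -0.13, limma adjusted p = 0.055) and when the GC trend was removed (log2 fold change -0.09, edgeR adjusted p = 0.0799). LAMP1 (ENSG00000185896), the most abundant member per length at 52.9 FPKM over all samples, had 342, 345 and 339 CPM in the control samples and 345, 348 and 358 CPM in the knockdown samples. All 3 knockdown values were above the control values by a small margin, and the log2 fold change of 0.04 (standard error 0.030) did not pass the test (edgeR adjusted p = 0.452).

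**Figure D3:**
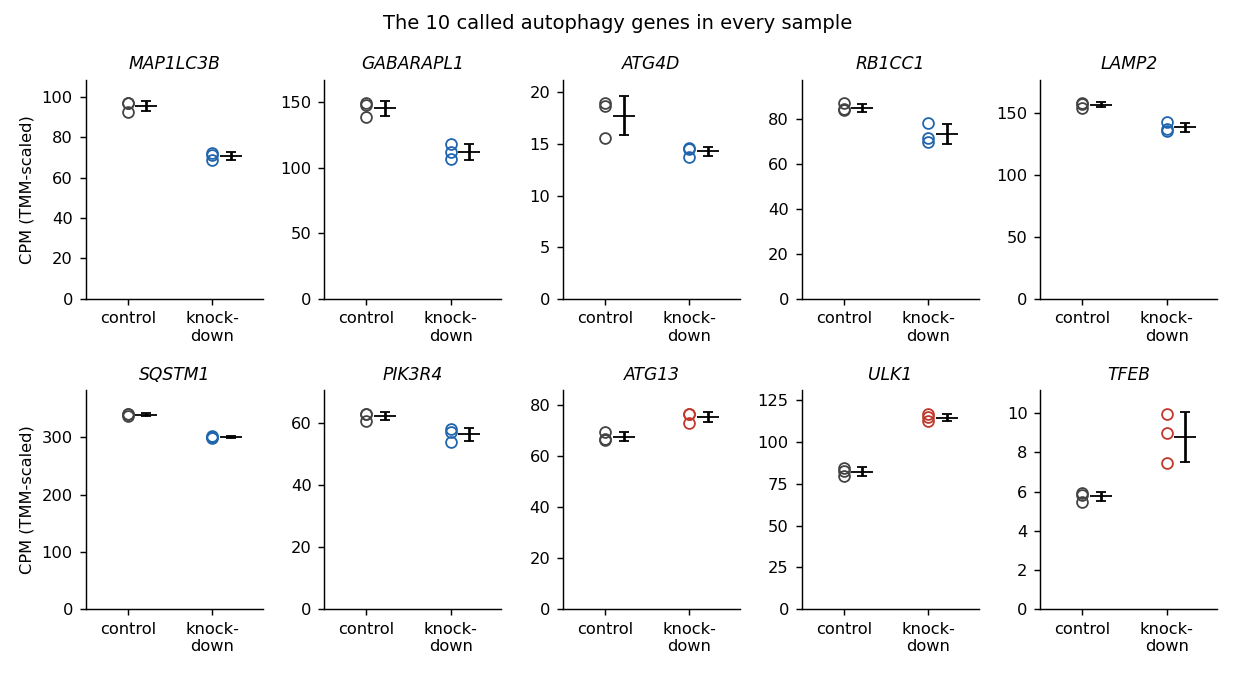
CPM (y axis, from 0) of the 10 called autophagy genes in the 3 control and 3 knockdown samples, with circles for samples and bars for the mean ± SD. The groups do not overlap in any panel, and the gap is widest against the spread for SQSTM1, ULK1 and MAP1LC3B and narrowest for ATG4D.

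Of the 10 calls, 5 held in all 16 other settings of normalization, filter, tool, unit and left-out sample. These were MAP1LC3B (log2 fold change -0.46 to -0.36), GABARAPL1 (-0.41 to -0.31), SQSTM1 (-0.23 to -0.12), ULK1 (0.39 to 0.53) and TFEB (0.34 to 0.72). None of the 10 changed sign. The lowest value for TFEB, 0.34, came from log2(FPKM + 1), where the added 1 is as large as its level.

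**Figure D4:**
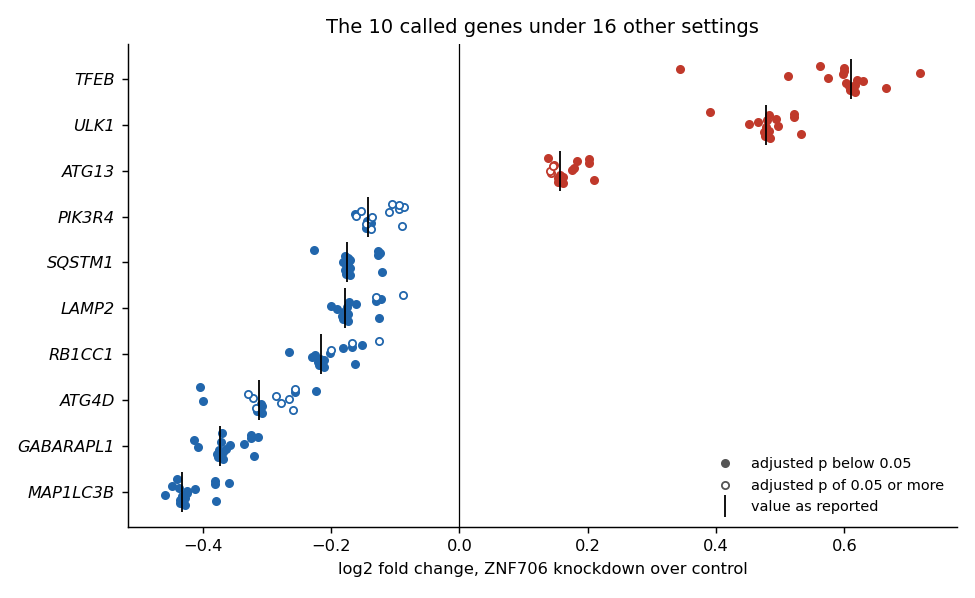
Log2 fold change (x axis) of the 10 called genes under 16 other settings, with filled circles where the adjusted p was below 0.05, open circles where it was not and a vertical mark for the value as reported. The circles of MAP1LC3B, GABARAPL1, SQSTM1, ULK1 and TFEB are all filled, and most of those of PIK3R4 are open.

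TFEB and its relatives are known to bind an E-box, CACGTG, and in many lysosomal genes its extended form TCACGTGA, the core of the CLEAR element. Both motifs read the same on either strand, and every TCACGTGA also holds a CACGTG. They were looked up in RefSeq promoters (GRCh38.p14, 250 bases before to 50 after a gene's start), which were matched for 34 of the 39 members. CACGTG was found in 3 of the 34 (8.82%) and in 7.43% of all 27305 promoters, and TCACGTGA in 2 of the 34 (5.88%) and in 1.04% of all. The members with CACGTG were LAMP1, ATG3 and ATG14, and none of the 10 called genes was among them, ATG4D, LAMP2 and RB1CC1 not having been matched. In the list of lysosomal hydrolases and membrane proteins described further on, TCACGTGA was in 4 of 26 matched promoters (15.4%). LAMP1 held 6 copies of CACGTG. The sites with the extended form are printed on the gene's strand because they are the closest matches in the members, with the motif in capitals.
LAMP1, chr13:113297202-113297225, plus strand, 28 bases before the start: ccgcgggaTCACGTGAcgcccggg
LAMP1, chr13:113297229-113297252, plus strand, across the start: ggcgcagcTCACGTGAcaagcgct
ATG3, chr3:112561943-112561966, minus strand, 5 bases after the start: gtctagtgTCACGTGAggccccgg
The log2 fold changes of ATG3 and LAMP1 were 0.06 and 0.04, and neither was called. With the GC trend removed ATG3 was called higher (0.13, edgeR adjusted p = 0.0397). A match is a description of the letters and says nothing about binding in these cells.

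A wider set of 114 genes of the same pathway, in 6 lists, was described beside the members. Of the 112 tested, 17 were higher and 27 lower (39.3% called, against 22.8% of all genes). Scaled by library size alone, 21 were higher and 15 lower. The 22.8% covers tested genes of all levels, so it is not matched for level to these lists, to each list below or to the members. Limma on log2(FPKM + 0.1), limited to mean FPKM 1 or more, called 21 higher and 16 lower of 103 list genes. Over all 11399 genes within that limit, 2279 were higher and 1539 lower. There the shares called in the lists and over all genes lay closer together. With an unadjusted edgeR p below 0.05 and a log2 fold change of 0.3 or more in size, 10 of the 112 were higher and 6 lower, a share near the background, since 15.5% of all genes passed these limits. The 27 lower genes became 17 without control replicate 3, without knockdown replicate 1 or without knockdown replicate 2. The median size of the log2 fold change was 0.14 in these lists and 0.20 over all genes. No list moved as a whole in 1 direction.

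The relatives of TFEB were split. MITF rose from 13.0 ± 0.92 to 17.3 ± 0.60 CPM (SD, n = 3 each, log2 fold change 0.41, standard error 0.086, edgeR adjusted p = 0.00792), and TFE3 fell from 39.6 ± 0.42 to 30.1 ± 1.76 CPM (log2 fold change -0.39, standard error 0.057, edgeR adjusted p = 0.00119). Both calls held in the 16 other settings. TFEC was not tested for lack of counts. RRAGA and RRAGC, Rag GTPases that hold mTORC1 and TFEB at the lysosome, were called lower at -0.17 each, and the call of RRAGC was lost in 11 settings. In all, 1 of the 11 tested genes of this list was higher and 3 were lower (36.4% called, against 22.8% of all genes). By unadjusted p and size as above, 2 were higher and 1 lower, where 15.5% of all genes passed.

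Of the 40 genes for lysosomal hydrolases and membrane proteins, 8 rose and 9 fell (42.5% called, against 22.8% of all genes), and the median log2 fold change was -0.04. By unadjusted p and size as above, 4 were higher and 2 lower, where 15.5% of all genes passed. LIPA, the lysosomal acid lipase, rose by 0.44 on the log2 scale, the protease CTSL by 0.39 and the acid ceramidase ASAH1 by 0.36. PSAP, the precursor of the saposins, fell by 0.38. The mean of PSAP was 699 ± 12.9 CPM among controls and 539 ± 21.1 CPM among knockdown samples (SD, n = 3 each).

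Of the 17 subunits of the V-ATPase, the proton pump that acidifies the lysosome, 3 were higher and 5 lower (47.1% called, against 22.8% of all genes). By unadjusted p and size, 2 were higher and 1 lower, where 15.5% of all genes passed. ATP6V0A1 (0.42), ATP6V0E2 (0.53) and ATP6AP1 (0.18) were higher, and ATP6V1D (-0.33), ATP6V1H (-0.16) and ATP6V0D1 (-0.15) were the largest of the 5 falls. The call of ATP6V0E2 was lost in 5 of 14 other settings, that of ATP6V1H in 2 of 16 and that of ATP6V0D1 in 11 of 16, DESeq2 among them. With library size alone the split was 4 higher and 1 lower, with ATP6V0D1 and ATP6V1H among those lost.

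Of the 15 fusion genes, which bring autophagosome and lysosome together, 2 were higher and 4 lower (40% called, against 22.8% of all genes). By unadjusted p and size, 1 was higher and 1 lower, where 15.5% of all genes passed. The largest fall was in PLEKHM1 (log2 fold change -0.46, call lost in 1 of 16 settings), an adaptor of the late endosome, with smaller falls in the SNARE protein YKT6 (-0.17) and the GTPase RAB7A (-0.16). FYCO1, which ties autophagosomes to microtubule motors, rose (0.37), as did VPS33A (0.19), whose call was lost in 6 settings. Of 12 further initiation and membrane factors, 2 were higher and 4 lower (50% called, against 22.8% of all genes). By unadjusted p and size, 1 was higher and 0 lower, where 15.5% of all genes passed. The rises were in TBC1D5 (0.50), a Rab GTPase-activating protein, and EI24 (0.14), whose call was lost in 4 of 16 settings. WDR45B (-0.24), a relative of the WIPI proteins, kept its call in all settings, and WDR45 (-0.25) and RUBCN (-0.20), the inhibitor Rubicon, lost theirs in 11 of 16 each. Of 17 selective receptors and their kinase, 14 were not called, and the 17.6% called lies near the 22.8% of all genes. By unadjusted p and size, 0 were higher and 1 lower, where 15.5% of all genes passed. SEC62 (-0.31), a receptor for the endoplasmic reticulum, and TBK1 (-0.25), the kinase that acts on OPTN and p62, were lower, and CALCOCO1 (0.27) was higher, with a call that was lost in 6 of 16 settings.

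**Figure D5:**
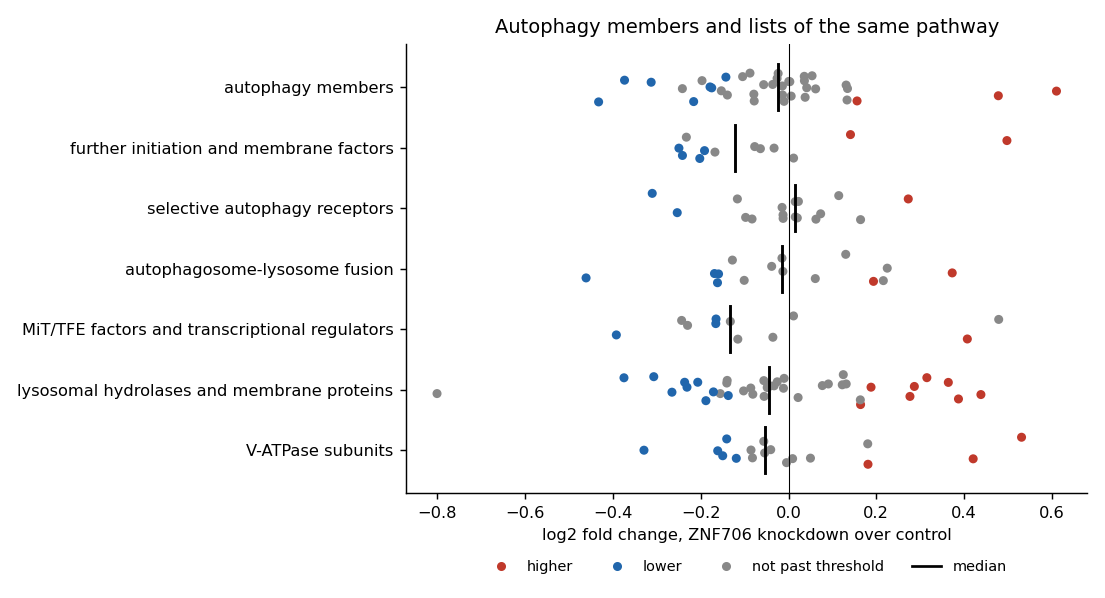
Log2 fold change (x axis) of the autophagy members and of the 6 lists of the same pathway, with a point for each tested gene except ULK2, colour for the call and a black line for the median. Points lie on both sides of 0 in each list, and the medians lie between -0.13 and 0.02.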

How the data were processed

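RNA from 6 samples of LM3 cells was sequenced by the authors on an Illumina NovaSeq system. Per the labels, reads were trimmed with cutadapt 1.9 and the build was GRCh38, and HISAT2 was used for mapping. The counting program, its strand setting and the annotation are not given in the sources used here. The authors deposited 1 table with the raw counts of each gene and its FPKM, the latter to 2 decimals. Positions overlapped those of GENCODE release 29 for 99.87% of 32092 shared genes.

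Low counts were removed with filterByExpr. The quasi-likelihood test (glmQLFit, then glmQLFTest) came from edgeR 4.0.16 under R 4.3.3 with TMM factors, a term for the group and Benjamini-Hochberg adjustment over 18390 genes. CPM values use these TMM library sizes. A standard error is the size of the log2 fold change over the root of its F statistic. Members and lists were chosen with earlier results of these data known. Values in every sample are given for each called member and for SQSTM1, BECN1, ULK1, MAP1LC3B, ATG5, ATG7, TFEB, LAMP1 and LAMP2, with up to 3 rises and 3 falls named from each other list. CD3E and KDR of the marker lists were not analysed here. Some genes of the lists that the rule would name are not reported here. Shared exon bases were taken from GENCODE release 29.

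The alternatives were DESeq2 1.42.0, its size factors in edgeR, library size alone, no filter, a minimum mean count of 50, a block for the replicate number, each sample left out, limma 3.58.1 (log2(FPKM + 0.1) or log2(FPKM + 1), mean FPKM 1 or more, and the first also without that limit), and, added after the data were seen, an edgeR offset for each library's GC trend with TMM kept.
Calls by an unadjusted edgeR p below 0.05 with a log2 fold change of at least 0.3 in size were also counted, after limits that the authors set on DESeq2 results.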

Additional observations from a re-analysis of the deposited data

How the results depend on the processing

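ZNF706 kept its direction and call in all 16 alternatives, and its log2 fold change ran from -0.77 to -0.70 with each sample left out. The 7 lower members became 4 without knockdown replicate 2, 3 with limma on log2(FPKM + 0.1) without a filter and 3 by an unadjusted edgeR p below 0.05 and a log2 fold change of at least 0.3 in size (called p and size from here), and ran from 4 to 6 with each sample left out. The 3 higher members became 5 with library size alone, 5 with limma on log2(FPKM + 0.1), 5 with limma on log2(FPKM + 1) and 5 with the GC trend removed, and ran from 2 to 3 with each sample left out. Over all genes, the 1906 higher became 1253 without a filter, and the 2286 lower became 1518 with library size alone, 1039 with limma without a filter and 1081 by p and size. With each sample left out they ran from 1148 to 1485 and from 1500 to 1939, both lowest without knockdown replicate 2. The 17 higher genes of the other lists became 10 by p and size and ran from 13 to 16 with each sample left out. The 27 lower became 15 with library size alone, 17 without a filter, 16 with limma on log2(FPKM + 0.1), 16 on log2(FPKM + 1), 12 without its filter and 6 by p and size, and ran from 17 to 21 with each sample left out. The members' median log2 fold change of -0.02 was 0.029 with library size alone, 0.024 with limma on log2(FPKM + 0.1), 0.022 on log2(FPKM + 1), 0.022 without its filter and between -0.044 and -0.0067 with each sample left out. The median over all genes moved too, from 0.01 to 0.063 with library size alone, 0.027 and 0.023 with the 2 filtered limma settings and 0.046 without the limma filter.

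Of the 10 called members, 5 lost the call in some alternative, and of the 28 uncalled, 5 (TAX1BP1, ATG3, ATG4C, ATG16L1 and ATG101) gained one in some. Of the 28 uncalled, 15 changed sign in some alternative. ATG7 was -0.0015 with DESeq2's size factors, -0.0027 without a filter and -0.0083 with the GC trend removed, and from -0.024 to 0.019 with each sample left out. ATG5 ran from -0.021 to 0.030 and BECN1 from -0.017 to 0.088 with each sample left out. The causes were not tested. In shares of the ATG8 family not divided by length, the difference for MAP1LC3B was -2.98 percentage points in place of -2.54, since length weights the genes. With each sample left out the differences were -2.63 to -2.39 for MAP1LC3B, -4.65 to -3.18 for GABARAPL1, 4.72 to 6.01 for GABARAP, 0.62 to 1.27 for GABARAPL2, 0.06 to 0.21 for MAP1LC3B2 and -0.07 to 0.03 for MAP1LC3A.

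Whether the replicate numbers pair the samples was not settled. Same-numbered samples had correlations of 0.064, 0.0063 and 0.12 in their deviations from the group means. Differently numbered samples had correlations from -0.096 to 0.037. With the number as a block, 3 members were higher and 7 lower, the same 10 genes, and 1967 genes were higher and 2394 lower in all.

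Depth limits the account of MAP1LC3A, ULK2 and MAP1LC3B2, whose counts were too few to show a change of the size seen elsewhere.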
